A study of Capra hircus with 9 samples.

Results

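The genes described here are 50 genes of ribosome biogenesis and of the nucleolus, chosen by symbol from a list drawn up by function. The list was drawn up with earlier results of these data known. Of the 50, 48 were listed in every library, and all 48 passed the filter on low values. PPAN and FTSJ3 were not listed in these files. The files name 18383 genes in all. RNA was sequenced in 9 libraries from the rumen epithelium of goats, which lines their largest forestomach. The libraries fell into 3 groups of 3, named HC, MC and LC after the diet in the titles, and all animals were 4 months old. The 3 diets differed in the type of concentrate fed, and the labels do not spell the letters out. RNA was taken from bulk tissue, and whether each library is a different animal is not labelled, so p-values here measure only the spread between samples, which may be technical. In bulk tissue, fewer cells of a type and less RNA per cell cannot be told apart.

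A ribosome starts in the nucleolus, where RNA polymerase I copies the ribosomal DNA into a long precursor. Small nucleolar ribonucleoproteins (snoRNPs) guide the chemical modification of that precursor, and assembly factors cut, fold and export the small (40S) and large (60S) subunits. MYC is a transcription factor known for raising many of these genes, and demand for ribosomes is high in dividing cells, such as those at the base of a stratified epithelium.

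Values are FPKM, fragments scaled by transcript length and mapped fragments. Read counts were not used here, and sequencing depth is unknown. A log2 change is the difference of means of log2(FPKM + 1) ± SE from 1 limma fit of all libraries, with p-values adjusted by Benjamini-Hochberg over the 11668 genes tested and a threshold of 0.05. That scale understates changes of genes with low values. Levels are mean FPKM ± SD (n = 3). Summed FPKM was 755624 in LC1 and 903006 to 1051183 in the other libraries. Of 14 epithelial markers, 12 were listed and summed to 7183 to 10035 FPKM, mostly from KRT5, KRT14 and PERP. KRT4, a keratin of the layers above the basal one, was low in MC, at 1.65 to 2.25 FPKM against 31.6 to 69.8 in LC and 16.1 to 29.2 in HC, and its part in the results was not tested. Smooth muscle markers differed widely between libraries and are given further on. On the scale of the files the median gene was lower in HC than in LC (log2 change -0.10) and than in MC (-0.10), and it differed by -0.0067 between MC and LC.

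Most of the genes were highest in MC. The mean was highest in MC for 40 of 48 genes, in LC for 6 (NPM1, EBNA1BP2, UTP14A, WDR74, POLR1E and NLE1) and in HC for 2 (MYC and TCOF1). Over all genes tested, the mean was highest in MC for 38.5%, in LC for 41.1% and in HC for 20.4%. For 34 of the 48 genes, every MC library lay above every LC and HC library, which held for 15.1% of all genes tested. The limma F test over the diets was passed by 35 of 48, against 45.2% of all genes tested.

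**Figure D1:**
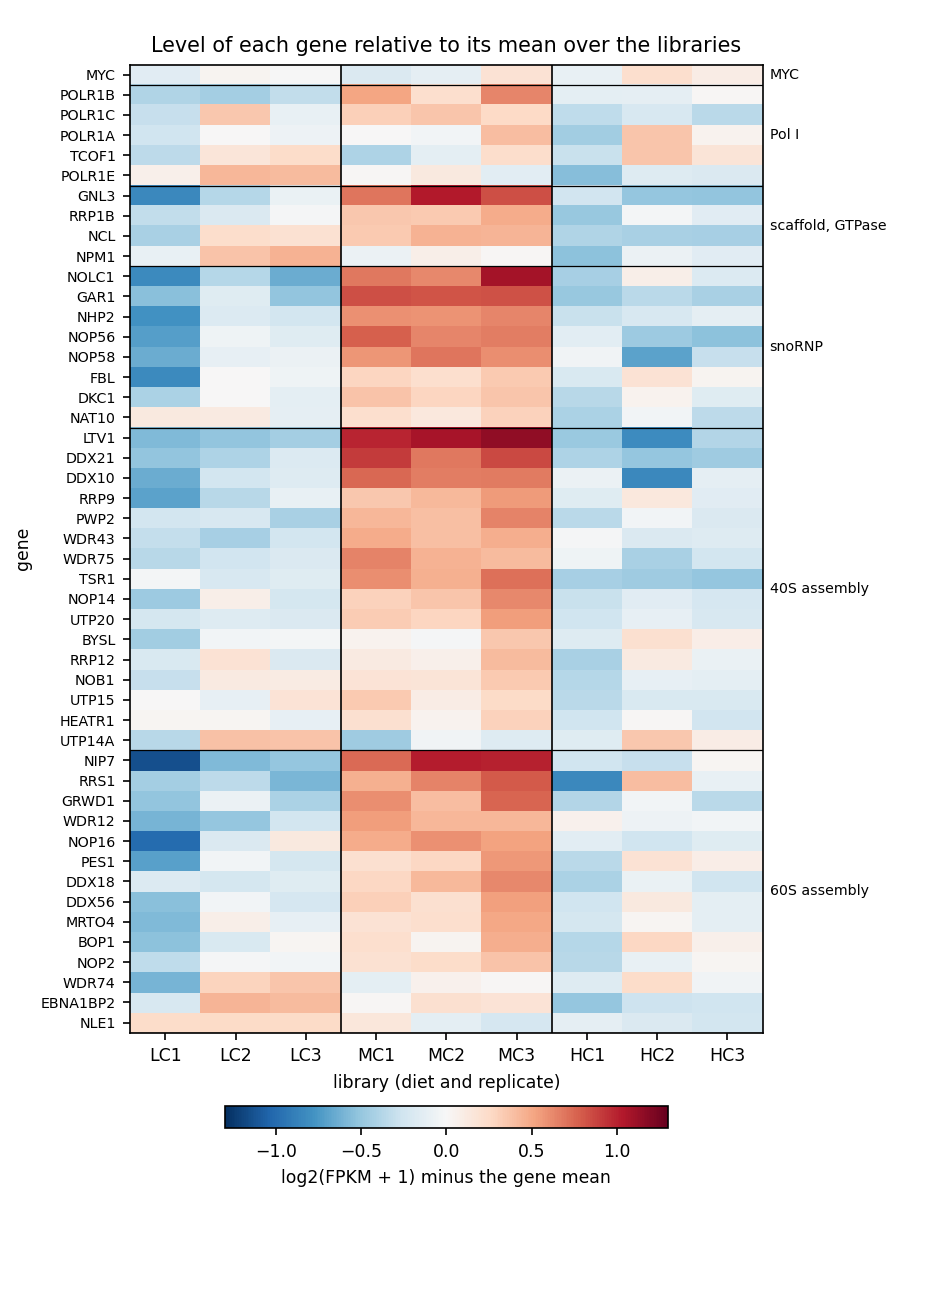
Each row is 1 of the 48 genes and each column 1 library, and the colour gives log2(FPKM + 1) minus the gene's mean over the 9 libraries, red above and blue below. The MC columns are red for most genes, LC1 is the bluest column of LC and HC1 the bluest of HC.

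By library, the median over the 48 genes of this deviation from each gene's own mean was 0.33 in MC1, 0.31 in MC2 and 0.48 in MC3. It was -0.41 in LC1, -0.066 in LC2 and -0.11 in LC3, and -0.31 in HC1, -0.094 in HC2 and -0.15 in HC3. The MC libraries stood apart from the other 6, while LC and HC overlapped. The same median over all genes ran from -0.093 to 0.058. Of the 48 genes, 42 to 45 lay above their own mean in an MC library, 5 to 19 in an LC library and 1 to 17 in an HC library. The same count was not made over all genes. Their median deviation was above 0 in every LC and MC library and below 0 in every HC library.

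In MC minus LC, 30 of the 48 genes were higher in MC, 0 were lower and 18 did not pass limma's test. The background over all genes tested was 16.2% higher and 17.1% lower. At an unadjusted p under 0.05, 32 were higher and 1 (NLE1) was lower, with no share over all genes counted at that limit. The log2 changes of the 30 ran from 0.40 to 1.66, and the median of all 48 was 0.60 against -0.0067 for all genes tested. In HC minus MC, 31 of the 48 were lower in HC, 0 were higher and 17 did not pass, against a background of 17.0% lower and 8.00% higher. At an unadjusted p under 0.05, 35 were lower and 0 higher, again with no such share counted. The log2 changes of the 31 ran from -1.63 to -0.41, and the median of all 48 was -0.51 against -0.10 for all genes. These contrasts share the MC libraries, so they are not independent of each other. In HC minus LC, 2 genes were higher, 4 were lower and 42 did not pass, against a background of 7.79% higher and 17.4% lower, and the median was 0.0033 against -0.10.

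The counts changed with the LC libraries used and when the level of smooth muscle markers, given further on, was added as a covariate. Without LC1, 26 genes were higher and 3 (NPM1, POLR1E and UTP14A) lower in MC minus LC, and 0 were higher and 6 lower in HC minus LC. Of the 11668 genes tested, 1851 were then higher and 2192 lower in MC minus LC. In HC minus LC, 787 were higher and 2004 lower. With LC3 alone for LC, 16 of the 30 genes remained higher in MC, and all 30 kept their direction. When each library was left out in turn, 25 of the 30 calls in MC minus LC and 21 of the 31 in HC minus MC were kept every time, and the calls that were lost are named with their genes. The reverse also occurred. In HC minus MC, HEATR1 and DDX56 passed without LC1 or HC2, and MRTO4 and EBNA1BP2 without LC1. In HC minus LC, POLR1C, NCL and NPM1 passed without LC1, RRP9 without LC3, NOLC1 and RRS1 without HC1 and NAT10 without HC2. With the smooth muscle marker level as a covariate, 20 genes were lower in HC minus MC and 32 were higher in MC minus LC. With that covariate, the calls over all genes in HC minus MC also fell, from 2917 to 1063. Scaling by median of ratios left 30 genes higher in MC minus LC and 23 lower in HC minus MC, but gave 6 higher and 1 lower in HC minus LC. That scaling also moved the share of all calls that were higher from 30.9% to 57.7% in HC minus LC and from 32% to 54.8% in HC minus MC.

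**Figure D2:**
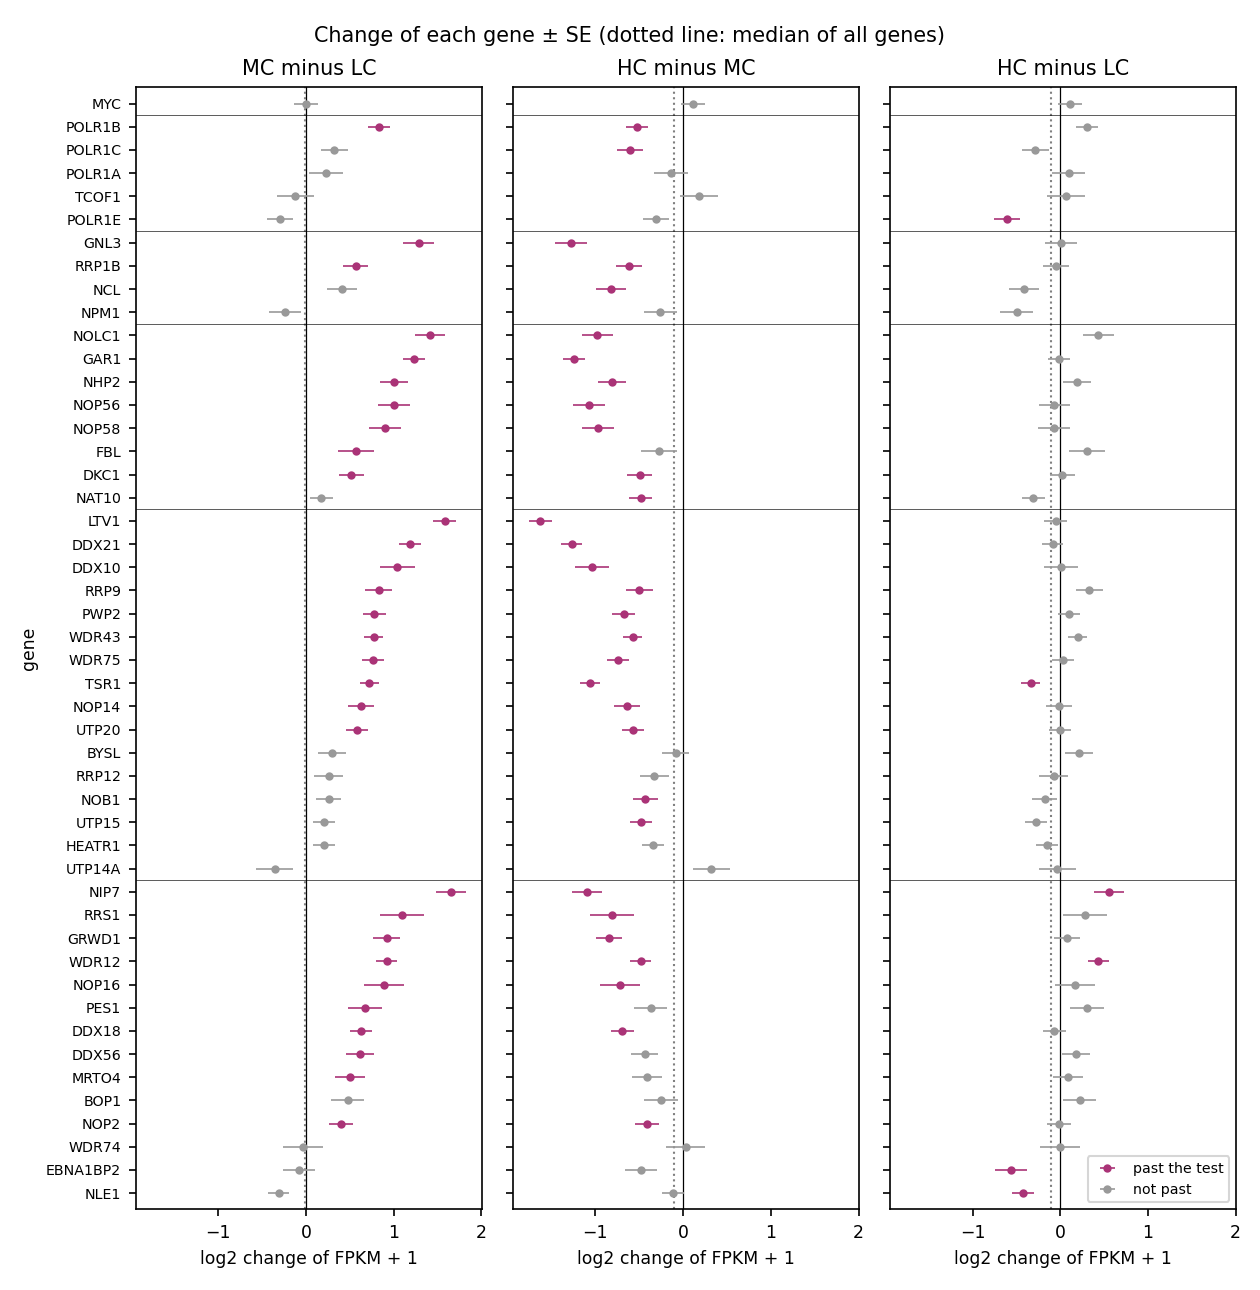
Points give the log2 change of FPKM + 1 of each gene with its SE, by contrast and grouped by role, with genes past limma's test in purple and the others in grey. The dotted line is the median of all genes tested. Purple points lie to the right of 0 in MC minus LC (30 genes) and to the left in HC minus MC (31 genes), and 6 are purple in HC minus LC.

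MYC itself passed the test in no contrast. Its FPKM was 21.1, 24.1 and 23.4 in LC1, LC2 and LC3, 20.5, 21.5 and 26.8 in MC1, MC2 and MC3, and 21.9, 27.4 and 25.2 in HC1, HC2 and HC3. The 3 diets overlapped. The log2 change was -9e-04 ± 0.14 in MC minus LC (adjusted p = 0.997), 0.11 ± 0.14 in HC minus MC (adjusted p = 0.569) and 0.11 ± 0.14 in HC minus LC (adjusted p = 0.575), and the F test gave an adjusted p of 0.693. These values miss the threshold, which does not show that MYC was equal in the diets. Among 10 wider genes of the MYC network, 2 were higher and 1 lower in MC minus LC, near the background of 16.2% and 17.1% for all genes tested. MAX, the partner that MYC needs to bind DNA, stood at 32.5 ± 3.48 FPKM in LC, 37.2 ± 0.269 in MC and 40.2 ± 4.28 in HC and passed in no contrast, but was higher in HC minus LC without LC1 (adjusted p = 0.0361). MXI1, which competes with MYC for MAX, was lower than in LC (10.4 ± 1.15 FPKM) in both MC (6.90 ± 0.393, adjusted p = 0.0067) and HC (6.61 ± 0.797, adjusted p = 0.00549). MXD3, of the same family, was higher than in LC (1.03 ± 0.266 FPKM) in both MC (1.88 ± 0.201, adjusted p = 0.0179) and HC (2.17 ± 0.281, adjusted p = 0.00753). MNT, another MAX-binding repressor, was higher in HC (3.05 ± 0.463 FPKM) than in MC (1.82 ± 0.655, adjusted p = 0.0443), a call lost without LC2, MC1, MC2, HC2 or HC3. With LC3 alone for LC, the calls of MXI1 and MXD3 were lost, and that of MXD3 in MC minus LC also without LC2, MC1 or MC2.

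Genes of RNA polymerase I itself differed among themselves. Of 5, 1 was higher in MC minus LC, 2 were lower in HC minus MC and 1 was lower in HC minus LC. The same shares over all genes tested were 16.2%, 17.0% and 17.4%, and 5 genes are too few to set against them. POLR1B, which encodes the second largest subunit, rose from 5.76 ± 0.298 FPKM in LC to 11.1 ± 1.76 in MC (log2 change 0.84 ± 0.13, adjusted p = 0.00048) and stood at 7.37 ± 0.469 in HC, lower than in MC (log2 change -0.53 ± 0.13, adjusted p = 0.0113). POLR1C, a subunit that RNA polymerase III also uses, was lower in HC (12.3 ± 0.720 FPKM) than in MC (19.2 ± 0.677, adjusted p = 0.014), a call lost without MC2 or without HC3, and its change in MC minus LC passed without LC2. POLR1A, the largest subunit, and TCOF1, the treacle protein of the nucleolus, passed in no contrast, with means of 6.97 to 8.39 and of 7.10 to 8.21 FPKM.

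POLR1E, the PAF53 subunit, was highest in LC and lowest in HC. Its gene lies at 59957289 to 59973823 in the files, on chromosome 8. The FPKM was 21.1, 27.5 and 27.2 in LC1, LC2 and LC3, 20.4, 22.1 and 18.3 in MC1, MC2 and MC3, and 13.4, 17.9 and 17.5 in HC1, HC2 and HC3. Every HC library lay below every LC and MC library, while LC1 fell inside the MC range. In HC minus LC it changed by log2 -0.61 ± 0.15 (limma, adjusted p = 0.0119), and this call was kept in every alternative except the threshold of 0.01. The changes in MC minus LC (log2 -0.30 ± 0.15, adjusted p = 0.141, but 0.0411 without LC1) and in HC minus MC (log2 -0.31 ± 0.15, adjusted p = 0.146) did not pass.

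The wider list held 15 further genes of RNA polymerase I and its factors. They included subunits shared with other RNA polymerases, such as POLR2E, and TTF1, a termination factor. Of the 15, 5 were higher and 1 lower in MC minus LC, against 16.2% and 17.1% of all genes tested. ZNRD1, a small subunit of the enzyme, rose from 10.3 ± 1.12 FPKM in LC to 28.0 ± 3.30 in MC (log2 change 1.36 ± 0.12, adjusted p = 1.65e-05) and was also higher in HC (16.0 ± 0.691, adjusted p = 0.0053) than in LC. TWISTNB, another subunit, rose from 3.56 ± 0.804 to 9.53 ± 0.684 FPKM in MC (log2 change 1.22 ± 0.14, adjusted p = 6.4e-05). RRN3, which brings the polymerase to its promoter, stood at 8.15 ± 0.219 FPKM in LC, 11.5 ± 0.646 in MC and 6.96 ± 0.788 in HC. UBTF, the factor that binds active ribosomal DNA, passed in no contrast. TAF1C, a subunit of the promoter selectivity factor, went the other way and was lower than in LC (8.08 ± 0.641 FPKM) in both MC (4.83 ± 0.467, adjusted p = 0.00147) and HC (3.93 ± 0.252, adjusted p = 0.000327). With LC3 alone for LC, ZNRD1 in HC minus LC (adjusted p = 0.0828) and RRN3 in MC minus LC (adjusted p = 0.111) did not pass, and TWISTNB was higher in HC minus LC without LC3. MAX, RRN3 and UBTF were chosen after their values were seen.

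The scaffold proteins of the nucleolus were the most abundant of the genes, per length, and did not follow each other. NPM1, nucleophosmin, a histone and ribosomal protein chaperone, had the highest mean FPKM of all 48. Its FPKM was 281, 389 and 412 in LC1, LC2 and LC3, 284, 317 and 304 in MC1, MC2 and MC3, and 206, 285 and 270.2 in HC1, HC2 and HC3. It was high in LC2 and LC3 and low in HC1, and the diets overlapped. None of the log2 changes passed, at -0.24 ± 0.18 in MC minus LC (adjusted p = 0.35), -0.26 ± 0.18 in HC minus MC (adjusted p = 0.318) and -0.50 ± 0.18 in HC minus LC (limma, adjusted p = 0.0687). These calls turned on LC1: without it, NPM1 was lower than in LC in both MC (adjusted p = 0.0444) and HC (adjusted p = 0.00699).

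NCL, nucleolin, binds the precursor RNA and ribosomal DNA chromatin, and its gene lies at 118653382 to 118661755 in the files, on chromosome 2. The FPKM was 96.0, 151 and 147 in LC1, LC2 and LC3, 163, 176 and 175 in MC1, MC2 and MC3, and 98.0, 95.4 and 95.3 in HC1, HC2 and HC3. Every MC library lay above the other 6, the HC libraries were close together, and LC1 sat with HC rather than with LC2 and LC3. NCL was lower in HC minus MC (log2 change -0.82 ± 0.17, adjusted p = 0.00594). The change in MC minus LC (log2 0.41 ± 0.17, adjusted p = 0.0885) and in HC minus LC (log2 -0.42 ± 0.17, adjusted p = 0.0967) did not pass, but without LC1 the latter did (log2 -0.63, adjusted p = 0.0015). GNL3, nucleostemin, a GTPase that shuttles between nucleolus and nucleoplasm, rose from 10.3 ± 2.89 FPKM in LC to 26.0 ± 3.18 in MC (log2 change 1.28 ± 0.18, adjusted p = 0.000283) and stood at 10.1 ± 1.21 in HC. RRP1B, a nucleolar protein, moved from 3.75 ± 0.518 in LC to 6.03 ± 0.393 in MC (adjusted p = 0.0102) and 3.62 ± 0.747 in HC, and both genes were lower in HC minus MC.

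The snoRNP genes had the largest share of calls of any role. In MC minus LC, 7 of 8 were higher, and in HC minus MC, 7 of 8 were lower, with median log2 changes of 0.95 and -0.89. Over all genes tested, 16.2% were higher in MC minus LC and 17.0% lower in HC minus MC. In all 8, every MC library lay above every other library, against 15.1% of all genes tested. In HC minus LC 0 of the 8 passed by limma, or 2 at an unadjusted p under 0.05, with a median of 0.0043. For all genes tested, 7.79% were higher and 17.4% lower in HC minus LC at the adjusted threshold. Box H/ACA snoRNPs turn uridine into pseudouridine, and 3 of the genes (GAR1, NHP2 and DKC1) encode their core proteins.

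GAR1, a core protein of the H/ACA particle, lies at 14040675 to 14048500 in the files, on chromosome 6. The FPKM was 8.76, 11.7 and 8.96 in LC1, LC2 and LC3, 24.5, 24.0 and 24.2 in MC1, MC2 and MC3, and 9.09, 10.2 and 9.63 in HC1, HC2 and HC3. The MC libraries had an SD of 0.227 FPKM and stood far above the rest, while LC and HC overlapped. GAR1 changed by log2 1.23 ± 0.12 in MC minus LC (limma, adjusted p = 3e-05) and -1.25 ± 0.12 in HC minus MC (adjusted p = 9.44e-05), against -0.015 ± 0.12 in HC minus LC (adjusted p = 0.942). NHP2, a second core protein, went from 32.2 ± 7.25 FPKM in LC to 64.5 ± 1.31 in MC and 36.4 ± 2.29 in HC. DKC1, the pseudouridine synthase of the particle, changed less, from 22.0 ± 3.31 to 31.7 ± 1.19 and 22.4 ± 3.35 FPKM, and its calls (adjusted p = 0.0162 and 0.0276) were lost when single libraries were left out, that of MC minus LC without MC1 and that of HC minus MC without any 1 of MC1, MC2, MC3, HC1 and HC3. NOLC1, a chaperone that gathers snoRNPs, had the largest change of the 8 in MC minus LC, from 13.9 ± 2.40 to 38.7 ± 7.17 FPKM (log2 1.41 ± 0.17, adjusted p = 0.000125), and stood at 19.2 ± 3.57 in HC.

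Box C/D snoRNPs place methyl groups on ribose, and FBL, fibrillarin, is their methyltransferase. Its FPKM was 59.9, 107 and 103 in LC1, LC2 and LC3, 130, 125 and 136 in MC1, MC2 and MC3, and 93.1, 122 and 109.7 in HC1, HC2 and HC3. Every MC library lay above the rest, though MC2 and HC2 were close, and LC1 was far below LC2 and LC3. FBL was higher in MC minus LC at the edge of the threshold (log2 change 0.57 ± 0.21, adjusted p = 0.0498), and 15 of 24 alternatives lost the call, among them leaving out LC1 (adjusted p = 0.0788) or any 1 MC or HC library. It did not pass in HC minus MC (log2 -0.27 ± 0.21, adjusted p = 0.351) or in HC minus LC (log2 0.30 ± 0.21, adjusted p = 0.299). NOP56 and NOP58, the core proteins that hold FBL on the particle, changed more: NOP56 from 40.5 ± 9.38 FPKM in LC to 80.8 ± 4.06 in MC and 38.2 ± 6.08 in HC, and NOP58 from 13.3 ± 2.94 to 25.2 ± 1.17 and 12.6 ± 3.02. The locus of NOP56 overlaps IDH3B in the files, so its value is uncertain. NAT10, which acetylates cytidine in ribosomal RNA, did not pass in MC minus LC (7.71 ± 0.796 against 8.82 ± 0.552 FPKM) and was lower in HC (6.07 ± 1.01, adjusted p = 0.0201) than in MC, a call lost without MC1, MC3, HC1 or HC3.

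**Figure D3:**
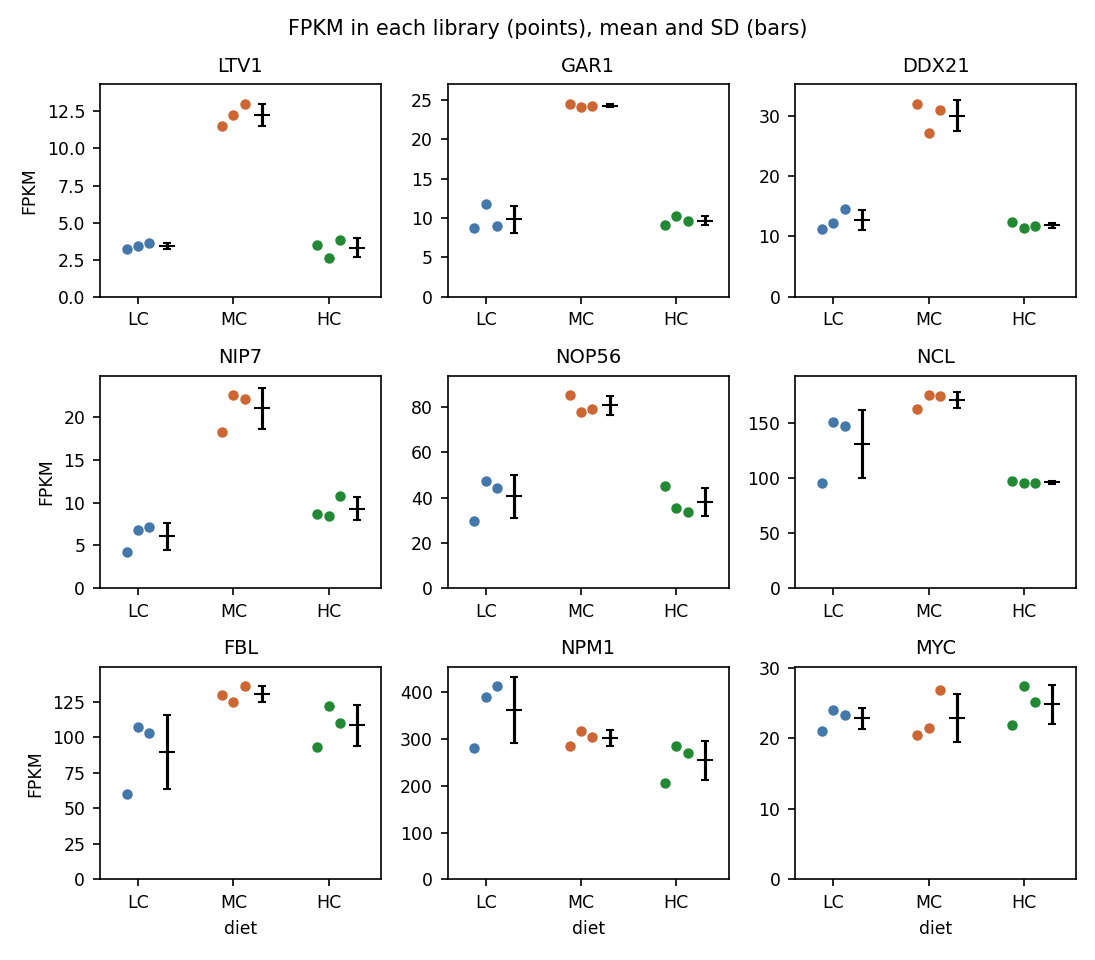
FPKM of 9 genes in each library (points, by diet), with mean and SD as bars and the axis from 0. LTV1, GAR1, DDX21, NIP7 and NOP56 are high in MC, LC1 is low for NCL and FBL, and NPM1 and MYC do not have their highest mean in MC.

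Genes of the small subunit processome and of 40S assembly were the largest group. In MC minus LC, 10 of 16 were higher, and in HC minus MC, 12 of 16 were lower, with medians of 0.68 and -0.58. Every MC library lay above the rest for 12 of 16. Over all genes tested, these 3 shares were 16.2%, 17.0% and 15.1%. LTV1, needed for the export and late maturation of the 40S subunit, showed the lowest adjusted p of the 48 in both contrasts. Its gene lies at 67794818 to 67811772 in the files, on chromosome 9. The FPKM was 3.25, 3.42 and 3.64 in LC1, LC2 and LC3, 11.5, 12.3 and 13.0 in MC1, MC2 and MC3, and 3.52, 2.59 and 3.84 in HC1, HC2 and HC3. The MC libraries stood far above the rest, and LC and HC overlapped. LTV1 changed by log2 1.58 ± 0.13 in MC minus LC (limma, adjusted p = 8.83e-06), -1.63 ± 0.13 in HC minus MC (adjusted p = 2.68e-05) and -0.050 ± 0.13 in HC minus LC (adjusted p = 0.807).

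DDX21, an RNA helicase that links RNA polymerase I transcription and processing, followed the same course. The FPKM was 11.3, 12.3 and 14.5 in LC1, LC2 and LC3, 32.0, 27.2 and 30.9 in MC1, MC2 and MC3, and 12.3, 11.4 and 11.8 in HC1, HC2 and HC3. No MC library came near the others, and LC and HC overlapped. DDX21 changed by log2 1.19 ± 0.12 in MC minus LC (limma, adjusted p = 3.47e-05) and -1.27 ± 0.12 in HC minus MC (adjusted p = 7.71e-05). The gene lies at 22993932 to 23019207 in the files, on chromosome 28.

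TSR1, a protein resembling a GTPase that rides on the early 40S particle, was high in MC and lowest in HC. The FPKM was 9.0, 7.79 and 8.13 in LC1, LC2 and LC3, 14.4, 13.0 and 15.6 in MC1, MC2 and MC3, and 6.51, 6.38 and 6.16 in HC1, HC2 and HC3. The 3 diets did not overlap in any library. TSR1 changed by log2 0.72 ± 0.11 in MC minus LC (adjusted p = 0.000542), -1.06 ± 0.11 in HC minus MC (adjusted p = 0.000135) and -0.34 ± 0.11 in HC minus LC (adjusted p = 0.0435), and the last call was lost in 16 of 24 alternatives, including leaving out any 1 library except MC3. The locus of TSR1 overlaps SRR in the files, so its value is uncertain.

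The other processome genes spread over a wide range. DDX10, a helicase, went from 3.45 ± 0.752 FPKM in LC to 8.08 ± 0.271 in MC and 3.54 ± 1.21 in HC. The processome subunits WDR43 (8.78 ± 0.637 to 15.7 ± 0.551 FPKM), WDR75 (7.46 ± 0.496 to 13.4 ± 1.26) and PWP2 (3.56 ± 0.350 to 6.82 ± 0.761) rose in MC minus LC, and all 3 were lower in HC than in MC. RRP9, which belongs to the U3 particle, NOP14 and UTP20 also rose in MC minus LC and were lower in HC minus MC, although RRP9 lost the second call without any 1 of MC1, MC2, MC3, HC1 and HC3. UTP15 and NOB1, the nuclease that makes the last cut of the small ribosomal RNA, were lower in HC minus MC (adjusted p = 0.0175 and 0.0435) and did not pass in MC minus LC. The call for UTP15 was lost without MC1 and that for NOB1 without any 1 of LC2 and the MC and HC libraries, and the locus of NOB1 overlaps another gene in the files. HEATR1, RRP12 and BYSL passed in no contrast, with means of 3.73 to 5.01, 6.48 to 8.35 and 11.2 to 13.9 FPKM. UTP14A stood at 65.3 ± 17.8 FPKM in LC, 49.8 ± 7.20 in MC and 62.6 ± 11.0 in HC and also passed in none, but was lower in MC minus LC without LC1. It was the only one of the 16 with its lowest mean in MC.

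The 60S assembly list held 14 tested genes. In MC minus LC, 10 of 14 were higher, and in HC minus MC, 7 of 14 were lower, with medians of 0.62 and -0.46. Over all genes tested, these shares were 16.2% and 17.0%. NIP7, which helps process the precursor and assemble the 60S subunit, had the largest log2 change of the 48 in MC minus LC. The FPKM was 4.27, 6.79 and 7.16 in LC1, LC2 and LC3, 18.3, 22.6 and 22.1 in MC1, MC2 and MC3, and 8.67, 8.43 and 10.8 in HC1, HC2 and HC3. The 3 diets did not overlap, with HC between the other 2 and closer to LC. The log2 change was 1.66 ± 0.17 in MC minus LC (limma, adjusted p = 3.75e-05), -1.10 ± 0.17 in HC minus MC (adjusted p = 0.00134) and 0.56 ± 0.17 in HC minus LC (adjusted p = 0.0334). The last call was lost without LC1, HC1 or HC3. The gene lies at 35759916 to 35763043 in the files, on chromosome 18.

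WDR12 forms the PeBoW complex with PES1 and BOP1, which joins the large subunit particle in the nucleolus. Its FPKM was 5.20, 5.66 and 7.0 in LC1, LC2 and LC3, 12.7, 11.7 and 11.8 in MC1, MC2 and MC3, and 8.80, 8.06 and 8.20 in HC1, HC2 and HC3. The diets did not overlap, and HC again lay between LC and MC. The log2 change was 0.92 ± 0.12 in MC minus LC (adjusted p = 0.000181), -0.49 ± 0.12 in HC minus MC (adjusted p = 0.0133) and 0.44 ± 0.12 in HC minus LC (adjusted p = 0.0211). The call in HC minus LC was lost without LC1, LC2, HC1 or HC3 and that in HC minus MC without MC1 or HC3. The partners of WDR12 changed less. PES1 went from 19.2 ± 4.59 FPKM in LC to 30.8 ± 4.29 in MC (adjusted p = 0.0187, lost without LC1 or MC3), and BOP1 from 12.8 ± 2.60 to 18.0 ± 2.91 (adjusted p = 0.0738, past the test without LC3 or HC1).

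Among the other 60S genes, GRWD1, a histone-binding WD repeat protein, and DDX18, a helicase, rose in MC minus LC (7.38 ± 1.38 to 14.8 ± 1.90 and 5.62 ± 0.162 to 9.27 ± 1.29 FPKM) and were lower in HC minus MC. The same pair of calls held for NOP16 (39.7 ± 14.8 to 70.6 ± 2.63 FPKM), for NOP2, a methyltransferase of the large ribosomal RNA (9.32 ± 1.25 to 12.5 ± 0.878), and for RRS1, which brings in the 5S particle (16.7 ± 1.55 to 37.0 ± 4.38). Their calls in HC minus MC had adjusted p values of 0.0409, 0.0454 and 0.0379, and each was lost without LC2, HC1, HC3 or any 1 MC library, those of NOP16 and NOP2 also without HC2 and that of NOP2 without LC3. The call of NOP2 in MC minus LC was also lost without any 1 LC or MC library. The locus of NOP2 overlaps another gene in the files, and that of RRS1 spans only 332 bases there. DDX56 and MRTO4 rose in MC minus LC (adjusted p = 0.0103 and 0.0401) and did not pass in HC minus MC (adjusted p = 0.0602 and 0.096), and the rise of MRTO4 was lost without LC1, LC3, HC3 or any 1 MC library. WDR74, whose locus overlaps STX5 in the files, held 48.2 ± 16.1, 45.2 ± 3.06 and 46.4 ± 7.03 FPKM in LC, MC and HC and passed in no contrast.

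Of the 14 tested 60S genes, 2 were lower and 2 (NIP7 and WDR12) higher in HC than in LC. Over all genes tested, 17.4% were lower and 7.79% higher. The 2 lower were EBNA1BP2 and NLE1. EBNA1BP2, a nucleolar assembly factor whose locus spans 1411 bases in the files, had 72.2, 114 and 112 FPKM in LC1, LC2 and LC3, 84.7, 96.9 and 94.7 in MC1, MC2 and MC3, and 58.6, 69.1 and 69.8 in HC1, HC2 and HC3. Every HC library lay below every LC and MC library, though LC1 came within a few FPKM of HC. The log2 change was -0.56 ± 0.18 in HC minus LC (limma, adjusted p = 0.0384), a call lost without any 1 library except LC1. NLE1, the Notchless homologue that acts on the 60S particle, had 5.99, 6.06 and 6.04 FPKM in LC1, LC2 and LC3, 5.58, 4.43 and 4.10 in MC1, MC2 and MC3, and 4.47, 4.21 and 4.04 in HC1, HC2 and HC3. The LC libraries agreed closely and lay above all others, and MC and HC overlapped. The log2 change was -0.42 ± 0.12 in HC minus LC (limma, adjusted p = 0.025), lost without LC2, LC3, HC2 or HC3, and -0.31 ± 0.12 in MC minus LC (adjusted p = 0.0688, past the test without MC1).

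A wider list of the same pathway was set beside the 48, of which 165 genes were listed in the files and 162 were tested. In MC minus LC, 78 were higher, 4 lower and 80 not past the test, against 16.2% higher and 17.1% lower over all genes tested. In HC minus MC, 84 were lower, 2 higher and 76 not past, against 17.0% lower and 8.00% higher. In HC minus LC, 4 were higher, 19 lower and 139 not past, both shares under the background of 7.79% higher and 17.4% lower. The median log2 changes were 0.39, -0.44 and -0.026. For 86 of 162, every MC library lay above every other library, against 15.1% of all genes tested. By role, 30 of 45 genes of 40S assembly, 22 of 48 of 60S assembly, 11 of 26 of the exosome and trimming enzymes and 5 of 10 further snoRNP genes were higher in MC minus LC.

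POP4, a subunit of the RNases that trim transfer and ribosomal RNA precursors (P and MRP), had the largest change of the wider list. It rose from 8.47 ± 1.68 FPKM in LC to 32.8 ± 2.54 in MC (log2 change 1.84 ± 0.16, limma, adjusted p = 1.25e-05) and stood at 7.55 ± 1.48 in HC (log2 change -1.99 ± 0.16 in HC minus MC, adjusted p = 2.68e-05). RPP38, of the same enzymes, went from 1.89 ± 0.237 to 5.11 ± 0.961 and 1.2 ± 0.125 FPKM. RRP15, of 60S assembly, went from 5.88 ± 0.317 to 13.0 ± 0.404 and 4.70 ± 0.688. IMP3, of the U3 particle, was higher than in LC (28.1 ± 4.09 FPKM) in both MC (58.1 ± 5.49) and HC (46.3 ± 6.36, adjusted p = 0.00626). Other genes ran against the majority. UTP6 of the processome was highest in LC (20.8 ± 1.04 FPKM) and lower in MC (15.5 ± 0.421, adjusted p = 0.0301) and HC (10.6 ± 1.76, adjusted p = 0.000424), and PARN, an enzyme that trims RNA ends, was lower than in LC (11.0 ± 0.889 FPKM) in both MC (6.97 ± 0.436, adjusted p = 0.00163) and HC (7.90 ± 0.338, adjusted p = 0.0134). GLTSCR2 was higher in HC (300.4 ± 59.3 FPKM) than in MC (172 ± 19.1, adjusted p = 0.0245). NOL8, of 60S assembly, was lower in HC (3.03 ± 0.315 FPKM) than in both LC (5.70 ± 0.682, adjusted p = 0.0018) and MC (6.04 ± 0.600, adjusted p = 0.00136). Calls lost when libraries were left out were UTP6 in MC minus LC (without LC2, LC3 or any 1 MC library), PARN in HC minus LC (without LC2) and GLTSCR2 (without MC1, MC2, HC2 or HC3), and GLTSCR2 was lower in MC minus LC without LC1 (adjusted p = 0.00937). With LC3 alone for LC, IMP3 and PARN in HC minus LC and UTP6 in MC minus LC did not pass.

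The ribosomal proteins themselves, the parts that these genes assemble, did not share the pattern of calls. Of 80 cytosolic ribosomal protein genes tested, 1 was higher and 1 lower in MC minus LC, 3 higher and 1 lower in HC minus MC, and 1 passed, as lower, in HC minus LC, all shares under those of all genes tested. Their median log2 changes were -0.042, 0.34 and 0.31. Every MC library lay above every other library for 1 of the 80, against 34 of the 48 biogenesis genes. Though few passed, the change in HC minus MC was positive for 77 of the 80, against 4615 of the 11668 genes tested and 4 of the 48. For 54 of the 80, every HC library lay above every MC library, against 1721 of all genes tested and 0 of the 48. The difference between the lists was not tested.

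**Figure D4:**
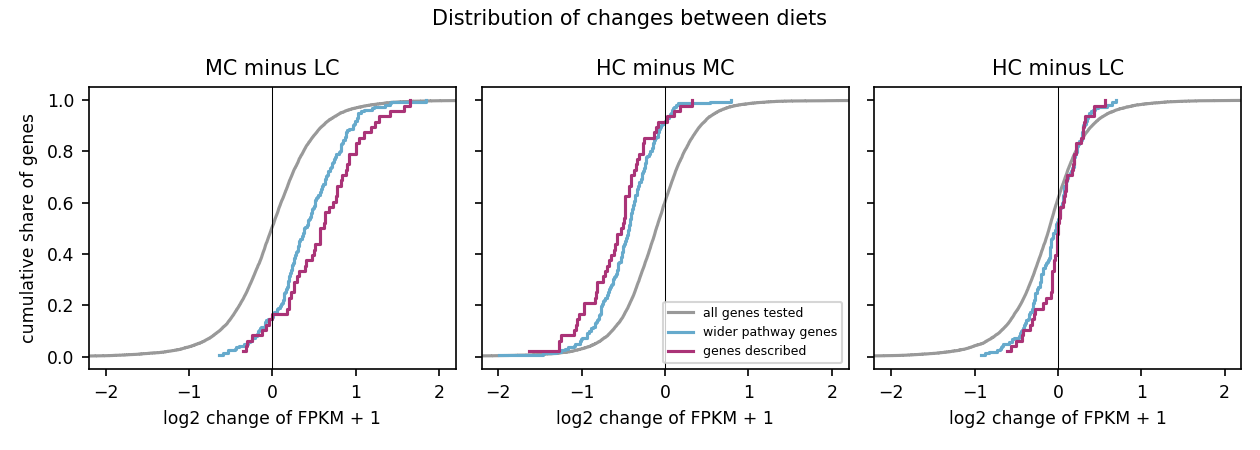
Cumulative share of genes (vertical axis) up to a given log2 change of FPKM + 1 (horizontal axis) for all 11668 genes tested, the 162 wider pathway genes and the 48 genes described. Both pathway curves lie to the right of all genes in MC minus LC (medians 0.39 and 0.60 against -0.0067) and to the left in HC minus MC.

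Markers of another tissue layer differed widely between libraries, also within LC. The 12 smooth muscle markers, all listed, summed to 3008, 1625 and 71.8 FPKM in LC1, LC2 and LC3, to 1434 to 4423 in MC and to 139 to 184 in HC. For 11 of the 12, LC3 and every HC library lay below all other libraries, and DES, for example, was at 1.44 FPKM in LC3 and 1.28 to 5.47 in HC. ACTA2 did not follow them, with 9.19 to 23.0 FPKM in LC, 14.8 to 31.0 in MC and 25.1 to 32.4 in HC. LC1, with a marker sum inside the range of MC, had the lowest median level of the 48 genes, and LC3, with the lowest marker sum, lay close to LC2. With LC3 alone for LC, the median log2 change in MC minus LC was 0.50. With the marker level as a covariate, the median was 0.67 in MC minus LC and -0.65 in HC minus MC. The marker sums of MC and HC did not overlap, so diet and marker level cannot be told apart in HC minus MC. Immune markers summed to 153 to 172 FPKM in LC, 49.8 to 59.2 in MC and 69.5 to 85.2 in HC, with 2 of 14 (MS4A1 and CD79A) under 1 FPKM in every library where they were listed. CD74 made up most of the sum in LC, at 106 to 121 FPKM, and NKG7 ran the other way, with 2.78 to 3.04 FPKM in LC, 7.98 to 9.22 in MC and 9.22 to 15.0 in HC. Fibroblast markers summed to 224 to 566 FPKM in LC, 133 to 296 in MC and 140 to 291 in HC, and endothelial markers to 17.4 to 51.6, 13.2 to 33.5 and 8.05 to 19.4. The part of the immune, fibroblast and endothelial markers in the results was not tested.

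**Figure D5:**
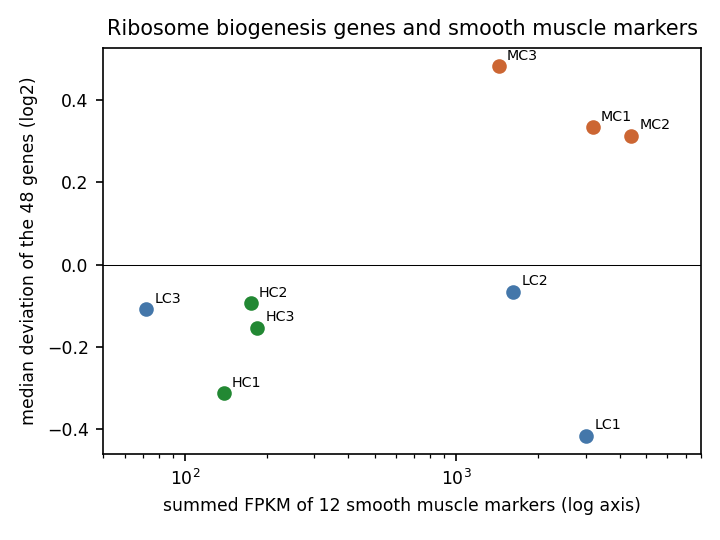
Each point is a library, with the summed FPKM of 12 smooth muscle markers on a log axis and the median deviation of the 48 genes from their own means (log2) on the vertical axis. The MC libraries lie highest, at 0.31 to 0.48, and LC1 lies lowest, at -0.41, with a marker sum inside the MC range.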

How the data were processed

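Total RNA of goat rumen epithelium was extracted with Trizol and made into libraries with a TruSeq kit, per the labels' protocols. The authors deposited 1 FPKM value per gene and library, and the submitters' processing notes name the tools as Bowtie 1.2.0 and Cufflinks 2.2.1. That the unit is FPKM follows from Cufflinks and from the range of the values. The genome build and strand were not given in the sources used here, nor was the handling of reads shared by gene copies, so genes with near-identical copies, such as NPM1, are uncertain. Gene positions are as in the files (1-based). Chromosomes come from RefSeq's table of ARS1.2, which held 49 of the 50 genes, and 5 of the 50 share their locus with another gene in the files.

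Lines of a duplicated symbol were summed, and lines without a name or named by a number were left out. Lines without a name numbered 11468 in HC1, 12038 in HC2 and 11692 in HC3, and 0 in every LC and MC library. Lines named by a number were 18 to 21 in LC and MC libraries and 0 in HC libraries. The HC data thus differed in form from the others, and the part of this in the HC contrasts was not tested. Tested were genes listed in all 9 libraries and reaching 1 FPKM in 3 or more, 11668 in all, with 211 more left out as not listed everywhere. The log2(FPKM + 1) values (pseudocount 1) went into limma 3.58.1 in R 4.3.3, 1 fit of 9 libraries with diet means and moderation by trend and robust options. Tests were two-sided and Benjamini-Hochberg adjustment was made within each contrast. The fit was checked on simulated data. Tables were read with Python 3.11.15, pandas 2.3.3 and numpy 2.4.6, and figures drawn with matplotlib 3.10.9. The quality weights used statmod 1.5.0.

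Values in every library are given for MYC, NCL, NPM1 and FBL and for the 3 genes with the highest mean. They are also given for up to 4 genes per contrast and direction with the lowest adjusted p. Of the wider list, up to 3 genes per contrast and direction with the lowest adjusted p are named, by mean and SD only. The genes and lists were chosen with earlier results of these data known. Alternatives changed the pseudocount, filter, scaling, moderation, weights, threshold, covariate, block and libraries used, and LC3 alone for LC was chosen after seeing the data. That fit takes the spread of LC from MC and HC.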

Additional observations from a re-analysis of the deposited data

How the results depend on the processing

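Of 24 alternatives, none reversed the direction of a call among the results given. Of the 30 genes higher in MC minus LC, 16 were kept in every alternative, and of the 31 lower in HC minus MC, 16 were kept. The genes higher in HC minus LC (2) became 6 with median-of-ratios scaling, 6 with quantile normalization, 5 with library quality weights, 1 with only the 2 diets compared, and 0 with the smooth muscle covariate, the threshold of 0.01 or LC3 alone (0 to 3 with 1 library left out). Those lower in HC minus LC (4) became 1 with median-of-ratios scaling, 11 with the weights, 2 with only the 2 diets compared, 2 with the covariate and 0 at 0.01 (1 to 6 with 1 library left out). Over the 11668 genes tested, the 909 higher became 1620 with median-of-ratios scaling, 1484 with quantile normalization and 1957 with the weights. The 2030 lower became 1187 with median-of-ratios scaling and 3932 with the weights, so these shifts were not particular to the 48 genes. In MC minus LC, the 0 genes lower became 1 with quantile normalization, 4 with the weights and 1 with the replicate block (0 to 3 with 1 library left out, 3 being without LC1), and the 30 higher became 16 with LC3 alone. In HC minus MC, 2 genes were higher with the weights, and the 31 lower became 20 with the covariate and 19 at 0.01 (22 to 35 with 1 library left out). With the weights, 3036 of all genes tested were lower in MC minus LC and 2530 were higher in HC minus MC. Of the 35 genes past the F test, 23 passed at 0.01. Over all genes, the 2939 calls in HC minus LC became 1908 with a filter of 5 FPKM, 5889 with the weights, 1404 at 0.01 and 1379 with LC3 alone (1769 to 2811 with 1 library left out, lowest without HC3), the 3894 in MC minus LC became 2261 at 0.01 and 2322 with LC3 alone, and the 2917 in HC minus MC became 6590 with the weights, 1063 with the covariate and 1246 at 0.01 (1619 to 4066 with 1 library left out). The filter of 5 FPKM also cut the genes tested from 11668 to 8119. Fewer samples or a stricter limit lower a count by construction, and the cause of the other shifts was not tested. With the replicate number as a block, 31 genes were higher in MC minus LC, 35 lower in HC minus MC, and 3 higher and 5 lower in HC minus LC. Residuals correlated from -0.076 to 0.50 over the 9 pairs of libraries with the same number (8 above 0) and from -0.49 to 0.31 over the 18 other pairs (6 above 0). Not every same-number pair was above 0.1, nor did every library correlate best with its own number, so the numbers were not taken to pair the libraries. Depth is unknown, so the limit it sets cannot be given.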
